A study of Bos taurus with 2 samples.

Results

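The SPATA (spermatogenesis associated), SPAG (sperm associated antigen) and TEX (testis expressed) genes were taken as every gene name on the bovine array made of SPATA, SPAG or TEX followed by a number, with the SPAG11 defensin names left out. This gave 42 genes on 79 probes and 85 spots, of 32429 gene names on 51282 probes and 61657 spots that were not controls. There were 19 SPATA, 8 SPAG and 15 TEX genes, and each of the 42 names is a current symbol in the bovine gene table of the assembly ARS-UCD2.0. Testis RNA came from adult crossbred bulls (Bos taurus x Bos indicus, Holstein Friesian crosses with 50 to 75% exotic inheritance) and from adult Zebu bulls (Bos indicus, Tharparkar breed), all aged 24 months. RNA of 3 bulls was pooled within each group, labelled with Cy3 and hybridized to 1 array, so the spread between bulls was not measured and no difference has a replicate check or a p-value. The study compared the groups because subfertility is more frequent among crossbred bulls.

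The 3 symbols name genes by where their transcripts or antigens were first found, not by a shared fold or pathway. Many of them act in germ cells. In the seminiferous tubule, spermatogonia divide, spermatocytes pair and recombine their chromosomes in meiosis, and round spermatids then build an acrosome, a compacted nucleus, a mitochondrial sheath and a flagellum with a microtubule axoneme. TEX11, TEX12 and SPATA22 belong to the meiotic machinery, SPAG6, SPAG16 and SPAG17 to the central apparatus of the axoneme, and SPATA16, SPATA19 and SPATA6 to the acrosome, the mitochondrial sheath and the sperm neck. Other members, such as SPATA2, SPATA5 and TEX10, work in most cells despite their names.

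Values are log2 processed signals minus the 75th percentile of the array, and every difference is crossbred minus Zebu. Of the 42 members, 39 were well above background on both arrays by the scanner software, and TEX9, TEX13B and TEX28 on neither. A difference of 1.5 or more, which is 2.83-fold, was counted as higher or lower, provided that the brighter side was well above background. Repeated spots of a probe had an SD of 0.29 (crossbred) and 0.18 (Zebu). Their differences between the arrays had an SD of 0.33, called the spot SD here. It covers spotting and scanning, not animals, pooling or labelling. Well above background were 72.0% (crossbred) and 74.3% (Zebu) of the non-control spots. A dark patch on the crossbred array (544 spots) and a bright patch (105 spots) were marked, and no member spot lay in either.

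Most members were brighter in crossbred testis. Among the 39 measured members 31 had a difference above 0 and 8 below 0, with a median of 0.67, quartiles of 0.24 and 1.43, and a range from -0.49 (TEX11) to 2.87 (SPATA21). Over all 24758 gene names detected the median was -0.05 and the quartiles were -0.49 and 0.46. Of the members, 9 (23.1%) were higher in crossbred testis by the threshold, where 7.25% of all gene names were higher, and 0 were lower, where 2.98% of all gene names were lower. The 9 were SPAG4, SPATA1, SPATA3, SPATA9, SPATA18, SPATA19, SPATA20, SPATA21 and TEX33. Counted against the spot SD instead, 26 members were higher by more than 1 SD, 3 were lower and 10 lay within it, while 29.9% of all gene names were higher and 33.4% were lower by that measure. The families differed in their counts. The SPATA genes had a median of 1.23 with 7 of 19 (36.8%) past the threshold, where 7.25% of all gene names were higher. The SPAG genes had 0.69 with 1 of 8 (12.5%), and the TEX genes 0.35 with 1 of the 12 measured (8.33%), both nearer to that share.

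**Figure D1:**
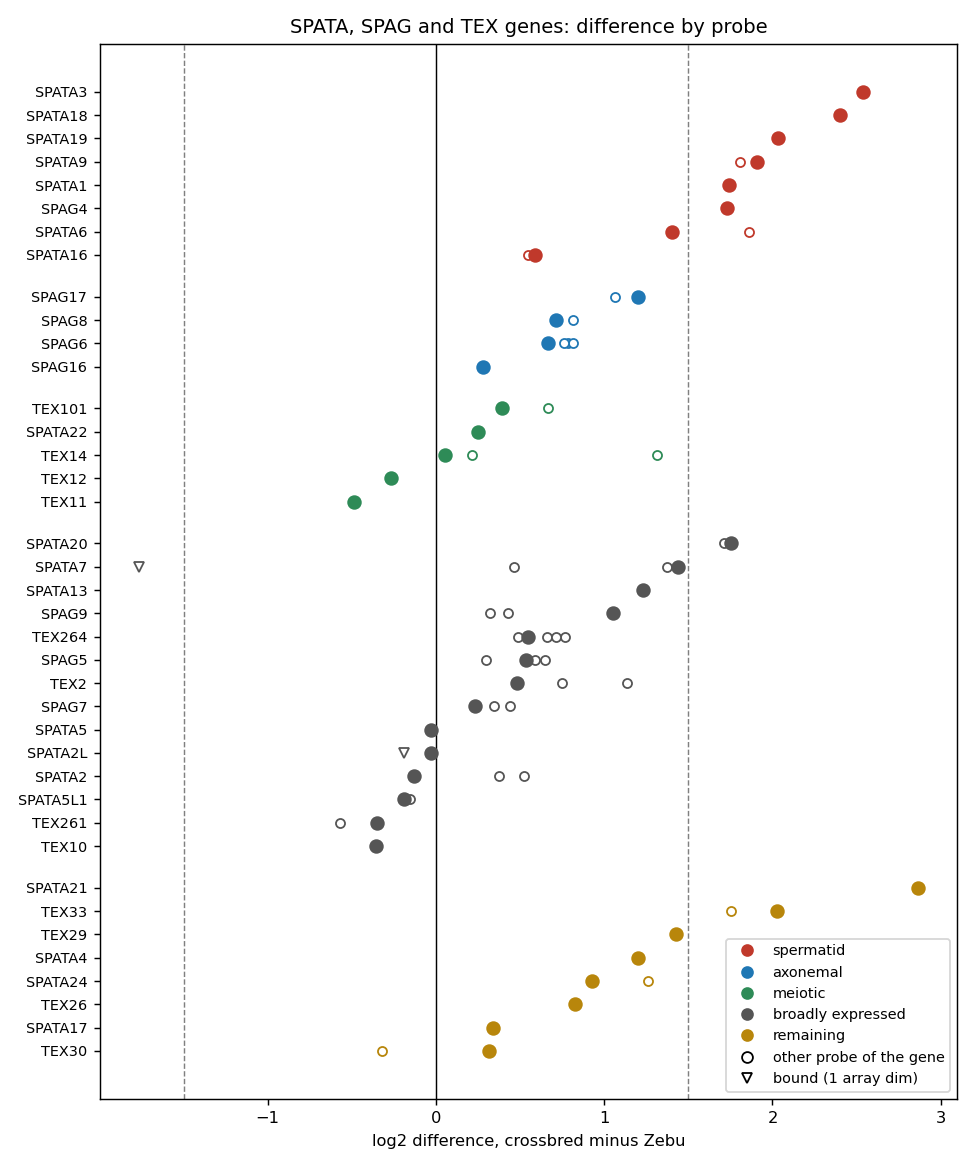
Log2 difference, crossbred minus Zebu, of each measured member, grouped by role. Filled points are the probe with the highest mean signal, open circles are other probes of the gene, triangles are bounds where 1 array was not well above background, and dashed lines mark 1.5 in size. Spermatid members lie to the right, from 0.59 to 2.54, SPATA21 among the remaining members lies farthest at 2.87, and meiotic members lie around 0, from -0.49 to 0.39.

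The spermatid members were SPAG4, SPATA1, SPATA3, SPATA6, SPATA9, SPATA16, SPATA18 and SPATA19, genes listed here for late germ cells or for parts of the sperm head, neck and midpiece. All 8 had a difference above 0, with a median of 1.82. The threshold was passed by 6 of them, where 7.25% of all gene names were higher. On the normalized log2 scale SPATA3 had 5.31 in the crossbred pool and 2.78 in the Zebu pool, a difference of 2.54 or 5.80-fold. SPATA18, also known as Mieap, a p53 target that acts in mitochondrial quality control, had 3.72 and 1.32, a difference of 2.40. Its probe has 2 spots on each array, and they differed by 0.29 in that value, less than the spot SD. SPATA19, a mitochondrial protein needed for the sperm midpiece sheath, had 5.18 and 3.15, a difference of 2.03. The crossbred array was the brighter by 4 times or more for these genes.

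SPATA9 was measured by a pair of probes that moved together, 2.55 in crossbred testis against 0.64 in Zebu testis for the brighter one and 1.78 against -0.02 for the other, which are differences of 1.91 and 1.81. SPATA1 had -1.23 and -2.97, a difference of 1.74, and SPAG4, a SUN-domain protein of the spermatid nuclear envelope, had 3.96 and 2.23, a difference of 1.73. Of the 6 spots next to that of SPATA1, 2 were also higher by 1.5 or more, against at most 1 at the spots of the other members past the threshold. After normexp background correction SPATA1 was under the threshold, at 1.43. SPATA16, a Golgi and acrosome protein whose loss gives round-headed sperm, had the smallest difference of the list, 0.59 from signals of 4.96 and 4.37, and its other probes gave 0.59 and 0.55. Every spermatid member was thus brighter in crossbred testis, and all but SPATA16 by 2.64-fold or more.

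SPATA6, needed to join the sperm head to the tail, lay on both sides of the threshold. Its probes for the same RefSeq transcript, NM_001046371, map to chromosome 3, plus strand, of HGSC Btau_3.1, the build of the array annotation. The brighter one lies at chr3:104865941-104866000 and had 6.73 in the crossbred pool and 5.33 in the Zebu pool, a difference of 1.40. The other lies at chr3:104814949-104819550, a stretch longer than the probe, and had 5.71 and 3.85, a difference of 1.86. Their gap of less than 0.5 decides whether SPATA6 is counted. The probes are shown because they read separate stretches of the transcript.
SPATA6, difference 1.40: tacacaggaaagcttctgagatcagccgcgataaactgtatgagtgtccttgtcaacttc
SPATA6, difference 1.86: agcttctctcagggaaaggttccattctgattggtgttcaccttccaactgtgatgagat

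**Figure D2:**
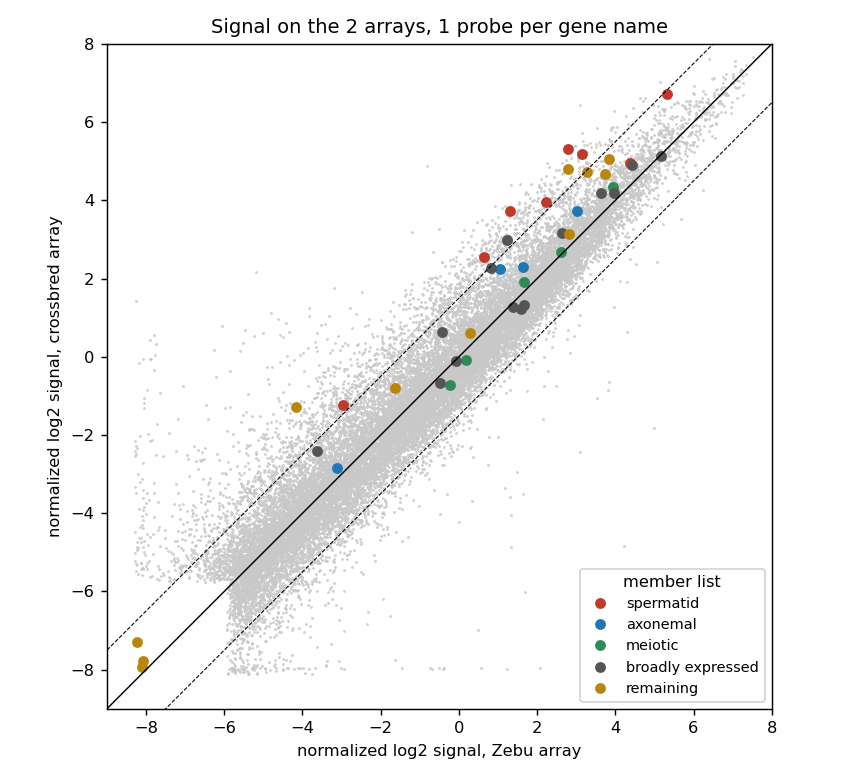
Normalized log2 signal on the Zebu array (horizontal) and on the crossbred array (vertical), 1 point per gene name, with members coloured by role and all detected gene names in grey. The solid line is equality and the dashed lines are 1.5 to either side; 9 members lie above the upper dashed line and none below the lower one, and the 3 members at the lower left were not well above background on either array.

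The axonemal members were SPAG6, SPAG16 and SPAG17, proteins of the central apparatus that regulates the flagellar beat, and SPAG8, an axoneme-associated protein of sperm. All 4 had a difference above 0, with a median of 0.69. Of them 0 passed the threshold, where 7.25% of all gene names were higher. SPAG17 had 2.26 in the crossbred pool and 1.06 in the Zebu pool, a difference of 1.20, and its other probe gave 1.06. SPAG8 had 3.74 and 3.02, a difference of 0.71, with 0.82 at its other probe. SPAG6 had 2.30 and 1.63, a difference of 0.67, and its 4 probes lay between 0.67 and 0.81. SPAG16 had -2.85 and -3.12, a difference of 0.28, which is within the spot SD.

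The list of meiotic members held TEX11, TEX12 and SPATA22, and also TEX14 and TEX101, which are described below as bridge and surface proteins of germ cells. Their median difference was 0.05, the value of TEX14, near the -0.05 of all gene names. None was past the threshold in either direction, where 7.25% of all gene names were higher and 2.98% lower. That median went to -0.03 under quantile normalization, so its sign is not settled. TEX101, a surface glycoprotein of germ cells, had 4.34 in the crossbred pool and 3.94 in the Zebu pool, a difference of 0.39, with 0.67 at its other probe. SPATA22, which works with MEIOB in meiotic recombination, had 1.91 and 1.65, a difference of 0.25. TEX12, a central element protein of the synaptonemal complex, had -0.08 and 0.19, a difference of -0.26. TEX11, an X-linked protein of meiotic recombination, had -0.72 and -0.23, a difference of -0.49, the lowest among the members. Its spot lies where the 18 nearest spots had a median difference of 0.79, the highest such value at any member spot.

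TEX14, which keeps the intercellular bridges between germ cells open, depended on the probe. Its brightest probe had 2.68 in the crossbred pool and 2.62 in the Zebu pool, a difference of 0.05. A probe listed under the cDNA BC108182 had 0.15 and -1.16, a difference of 1.31, and the remaining probe, close to the lowest value well above background on each array, had -5.48 and -5.70, a difference of 0.22. The mean over the 3 probes was 0.53. The range of 1.26 between its probes was the widest among members measured on both arrays.

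**Figure D3:**
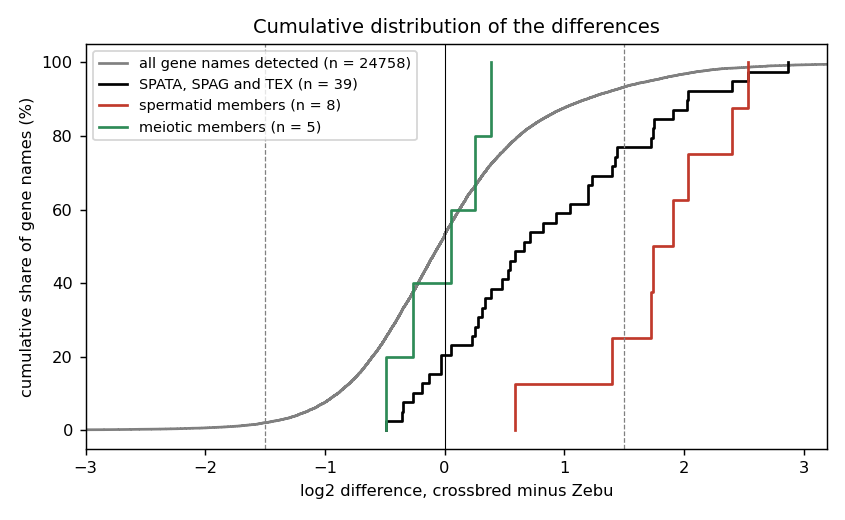
Cumulative share of gene names (vertical, percent) by log2 difference, crossbred minus Zebu (horizontal), for all detected gene names, all measured members, the spermatid members and the meiotic members. The member curve lies to the right of the grey curve of all gene names, with medians of 0.67 and -0.05; the spermatid curve has its median at 1.82 and the meiotic curve at 0.05.

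The broadly expressed members were 14 genes listed here as expressed beyond germ cells. Their median difference was 0.36, with 8 above 0 and 6 below 0. Of them 1 (7.14%), SPATA20, was past the threshold, near the 7.25% of all gene names that were higher. SPATA20, a thioredoxin-like protein, had 2.98 in the crossbred pool and 1.22 in the Zebu pool, a difference of 1.75, and its other probe gave 1.71. SPATA13 had -2.40 and -3.63, a difference of 1.23 that became 0.88 after normexp background correction. SPAG9, a scaffold protein of JNK signalling, had 0.63 and -0.42, a difference of 1.05, whereas its other probes gave 0.43 and 0.32.

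TEX264, an endoplasmic reticulum receptor for autophagy, had 4.19 and 3.64, a difference of 0.55, and its 5 probes lay between 0.49 and 0.77. SPAG5 (astrin), a mitotic spindle protein, had 3.17 and 2.63, a difference of 0.53, and 4 probes between 0.30 and 0.65. TEX2, a lipid-transfer protein of the endoplasmic reticulum, had 4.90 and 4.42, a difference of 0.48, and its other probes gave 1.13 and 0.75. SPAG7, a protein with an R3H domain, had 4.20 and 3.97, a difference of 0.23. These 4 genes were brighter in crossbred testis at each of their probes, below the threshold throughout.

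The 6 broadly expressed members below 0 all differed little. SPATA5 and SPATA5L1, AAA-type ATPases of ribosome maturation, had differences of -0.03 and -0.19, from signals of -0.12 and -0.09 and of -0.68 and -0.49. SPATA2, an adaptor of the deubiquitinase CYLD, had 1.26 and 1.39, a difference of -0.13, but its other probes gave 0.52 and 0.37. SPATA2L, its paralogue, had 5.14 and 5.17, a difference of -0.03. Its other probe passed the background call on the Zebu array alone and was at least 1.14-fold lower in crossbred testis. TEX261, a membrane protein of the early secretory pathway, had 1.32 and 1.67, a difference of -0.35, with -0.57 at its other probe, and TEX10, a protein of ribosome biogenesis, had 1.23 and 1.59, a difference of -0.36. Of these 6, TEX261 and TEX10 were lower by more than the spot SD.

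SPATA7, a protein known from the connecting cilium of retinal photoreceptors, had a probe that opposed the others by more than the threshold. All 4 of its probes are annotated to the RefSeq transcript NM_001098928 on chromosome 10, plus strand, and they are shown because the direction of the gene depends on which is read. From the lowest coordinate upwards on HGSC Btau_3.1 they lie at chr10:103142602-103142661, chr10:103155200-103155500, chr10:103155738-103157717 and chr10:103158308-103158367.
SPATA7, probe from 103142602: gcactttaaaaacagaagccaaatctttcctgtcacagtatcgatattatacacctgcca
SPATA7, probe from 103155200: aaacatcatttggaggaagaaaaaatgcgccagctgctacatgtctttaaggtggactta
SPATA7, probe from 103155738: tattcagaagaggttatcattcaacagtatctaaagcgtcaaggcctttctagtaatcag
SPATA7, probe from 103158308: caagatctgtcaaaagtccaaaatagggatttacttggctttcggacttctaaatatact

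The probe from 103142602, the brightest, had 2.27 in the crossbred pool and 0.83 in the Zebu pool, a difference of 1.44. The probe from 103155200 had 2.12 and 0.74, a difference of 1.37. The probe from 103158308 had -3.75 and -4.21, a difference of 0.46. These 3 probes were all higher in crossbred testis, and each was well above background on both arrays.

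The probe from 103155738 went the other way, with -7.90 in the crossbred pool and -4.01 in the Zebu pool. On the crossbred array it was not well above background, and the scanner software had replaced its processed signal with a surrogate, 4.92 against 76.3 on the Zebu array. It was at least 3.40-fold lower in crossbred testis against the lowest value well above background there, -5.78. It was the 1 member probe of 76 measured that was lower by the threshold, where 2.99% of all probes were lower. After normexp background correction its difference was -0.96, which is not past the threshold. Its spot lay outside the marked patches, the 18 nearest spots had a median difference of 0.11, and 0 of the 6 spots next to it were lower by 1.5 or more. Its 60 bases are annotated over 1980 bases of the genome, as those of 16 member probes in all are annotated over more than their own length. The mean over the 4 probes, with the dim side at its bound, was 0.38. What sets this probe apart from the others was not tested. The study reported SPATA7 as lower in crossbred testis on its array. By quantitative PCR on testis samples of individual bulls, it reported the gene as significantly lower in crossbred males. That is the direction of this probe and not of the others. Which probe gave the array value of the study, and which stretch of the transcript the PCR read, were not determined here.

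**Figure D4:**
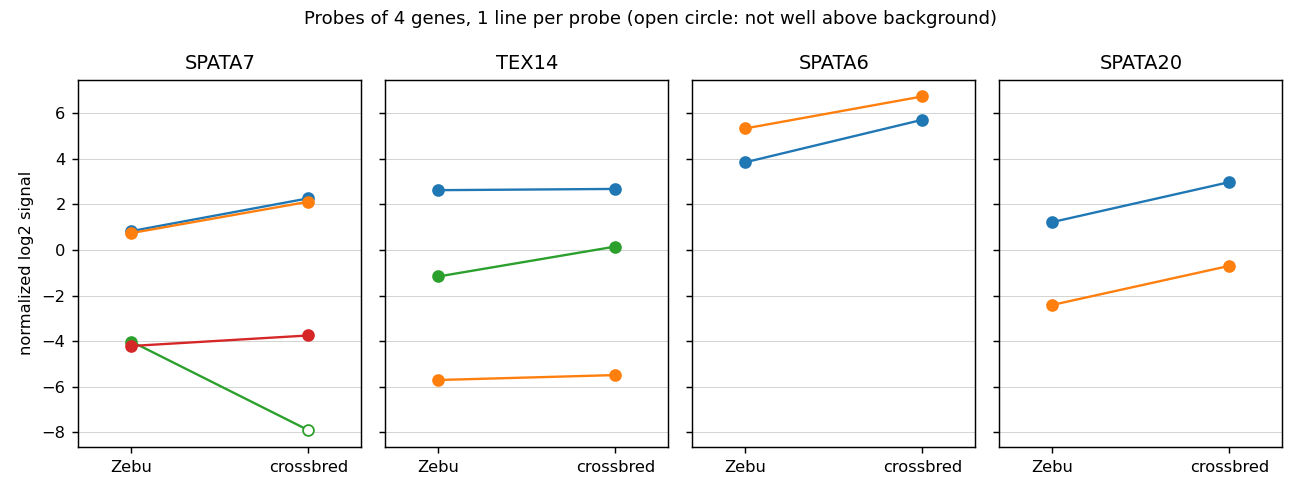
Normalized log2 signal of each probe of SPATA7, TEX14, SPATA6 and SPATA20 on the Zebu and the crossbred array, with 1 line per probe and an open circle where the probe was not well above background. Slopes, not heights, are comparable between probes: 3 SPATA7 lines rise and 1 drops from -4.01 to -7.90, TEX14 has 1 steeper line, and the lines of SPATA6 and of SPATA20 rise nearly in parallel.

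The remaining 11 members have a less settled or a mixed role, and 8 of them were measured. All 8 had a difference above 0, with a median of 1.07. SPATA21, a protein with an EF-hand motif, had -1.29 in the crossbred pool and -4.16 in the Zebu pool, a difference of 2.87, or 7.30-fold, the highest among the members. It became 2.02 after normexp background correction and rests on 1 probe. TEX33 had 4.81 and 2.79, a difference of 2.03, with 1.75 at its other probe. TEX29 had 4.71 and 3.29, a difference of 1.43, and lay just under the threshold together with SPATA7 and SPATA6.

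SPATA4 had 5.05 in the crossbred pool and 3.85 in the Zebu pool, a difference of 1.20. SPATA24 had 4.67 and 3.74, a difference of 0.93, with 1.26 at its other probe, and TEX26 had -0.80 and -1.63, a difference of 0.83. SPATA17, a protein with IQ motifs that bind calmodulin, had 0.61 and 0.27, a difference of 0.34. TEX30 had 3.14 and 2.83, a difference of 0.32, but its other probe, which is listed under an expressed sequence tag with no position, gave -0.32. Neither TEX30 value exceeds the spot SD.

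Counted by probe, 13 of 76 measured member probes (17.1%) were higher in crossbred testis, where 6.14% of all 39804 detected probes were higher. Of the 9 members past the threshold, SPAG4, SPATA1, SPATA3, SPATA18, SPATA19 and SPATA21 have 1 probe each, whereas SPATA9, SPATA20 and TEX33 were past it at every probe. Among the 21 members with several probes well above background on both arrays, all such probes had the same sign in 19 (90.5%), against 66.8% of 8185 gene names, and the exceptions were SPATA2 and TEX30. This count leaves out the SPATA7 probe that was dim on the crossbred array. The median range between probes was 0.28 for members and 0.39 for all gene names. These figures describe the array, since probes of 1 gene share the same RNA pools.

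Probes that overlap in sequence read nearly the same stretch and give a check on the measurement. A pair of TEX264 probes shares 50 bases, in capitals here, and gave differences of 0.49 and 0.66.
TEX264, difference 0.49: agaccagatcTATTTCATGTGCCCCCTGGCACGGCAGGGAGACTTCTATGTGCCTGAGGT
TEX264, difference 0.66: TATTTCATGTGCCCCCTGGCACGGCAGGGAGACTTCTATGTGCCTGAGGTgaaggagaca
The gap of 0.18 between them is below the spot SD. SPAG6 has a pair that shares 53 bases, with 0.79 and 0.81, and SPAG7 a pair that shares 34, with 0.23 and 0.35. A SPAG5 probe shares 57 bases with a probe listed under another name, XM_002695746, and they gave 0.53 and 0.59, so their signals cannot be told apart.

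Known partners of the members were read in the same way. Of 16 partner genes listed, 9 were named on the array, with a median difference of 0.51. By the threshold 2 of the 9 were higher and 0 lower, where 7.25% of all gene names were higher and 2.98% lower. The pair past the threshold were ODF1, an outer dense fibre protein of the sperm tail that binds SPAG4, with 5.41 in the crossbred pool and 3.28 in the Zebu pool, and SUN3, a SUN-domain protein of spermatids, with a difference of 1.53. The synaptonemal complex proteins SYCE1, SYCE2 and SYCP3, which assemble with TEX12, had 0.65, 0.51 and 0.20. HSF2BP, a meiotic recombination factor, had 0.42. CEP55 and KIF23, which bind TEX14 at the bridge, had 0.19 and -0.19, and CYLD, the partner of SPATA2, had 0.53. The partners of meiotic members read here were all under the threshold, as were those members. Both lists are small beside the shares above, so this does not set them apart from all gene names. SYCE1, SYCE2 and SYCP3 were above 0, whereas TEX12 was at -0.26.

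Markers of testis cell types differed in direction by cell type. The 6 spermatid markers, protamines, transition proteins and outer dense fibre proteins, were all above 0 with a median of 1.48. They were spread from 0.36 (PRM1) and 0.49 (TNP1) to 2.13 (ODF1). Of them 3 were past the threshold, where 7.25% of all gene names were higher. Their summed signal, in units of the 75th percentile of each array, was 688.9 in the crossbred pool and 346.4 in the Zebu pool. ODF1 stands in this list and in that of the partners. Of 3 spermatocyte markers on the array all were above 0, with a median of 0.41. The 4 spermatogonial markers were all below 0, with a median of -0.66 and summed signals of 25.6 and 39.1.

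The markers of Sertoli, Leydig, and peritubular and smooth muscle cells were lower. The 4 Sertoli cell markers read here had a median of -0.79 and summed signals of 112.3 and 160.5, the 5 Leydig cell markers -1.00 with 87.7 and 132.5, and the 4 markers of peritubular and smooth muscle cells -0.88 with 24.3 and 43.1. All 13 of these were below 0. The 3 endothelial markers had a median of 0.28 and the 3 macrophage markers 0.00. Every marker of germ cells, Sertoli, Leydig and peritubular cells that was read here was well above background on both arrays. In whole testis, more cells of a type and more RNA per cell cannot be told apart, and the part of cell composition in the differences of the SPATA, SPAG and TEX genes was not tested.

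**Figure D5:**
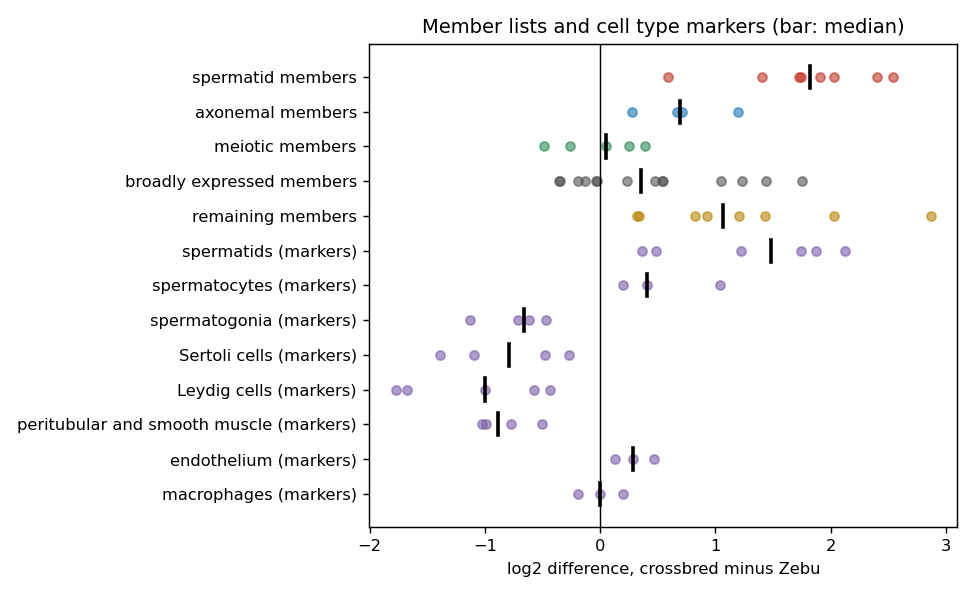
Log2 difference, crossbred minus Zebu, of each gene in the member lists and in the marker lists of testis cell types, with a bar at each median. Spermatid members (median 1.82) and spermatid markers (1.48) lie to the right, meiotic members (0.05) and spermatocyte markers (0.41) nearer to 0, and markers of spermatogonia, Sertoli, Leydig and peritubular cells to the left, at -0.66, -0.79, -1.00 and -0.88.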

How the data were processed

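RNA of 3 bulls per group was pooled and read on 1 one-colour array per group. Per spot, the authors deposited the processed intensity from Agilent Feature Extraction 11.5.1.1, background-subtracted and detrended within the array, together with mean and local background intensity. They also deposited log2 values, shifted by the 75th percentile of the array, whose column medians were -3.00 for crossbred and -3.01 for Zebu; they were used as an alternative.

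Control spots were dropped, as were 13 outlier spots, and 0 spots were saturated. Log2 processed signals were averaged by probe, from which the 75th percentile over non-control probes (a signal of 1176 for crossbred and 1233 for Zebu) was subtracted. A gene took the value of its brightest probe by mean signal over both arrays. A side not well above background gave a bound: the brighter value over the higher of the dim value and the lowest value well above background, -5.78 for crossbred and -5.94 for Zebu. Beyond that choice, levels were set side by side between arrays, not between probes.

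The members, role lists, partners and markers were chosen with earlier results of these data known, so their counts and medians are descriptions. Values on both arrays were printed for members of the role lists, for those past 1.5 in size and for those with opposed probes; the other measured members were added afterwards. The listed names TEX15, TEX19, SPAG1 and TEX40 were not matched to a gene name and were not analysed here. Alternatives were normexp with an offset of 50, median and quantile scaling, a percentile over the probes that both arrays detected, patches left out, the mean over probes, a threshold of 1 and a stricter filter. With 1 array per group no test could be made, and precision is limited by the number of arrays. Probe positions are those of HGSC Btau_3.1; whether a probe lies in coding sequence or a UTR was not determined. Steps were tested on simulated data. The software was Python 3.11.15 (numpy 2.4.6, pandas 2.3.3) and, for normexp, limma 3.58.1 in R 4.3.3.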

Additional observations from a re-analysis of the deposited data

How the results depend on the processing

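The median difference of the spermatid members lay between 1.80 and 1.82 under every alternative run, that of all members between 0.59 and 0.69, and that of the meiotic members between -0.03 (quantile normalization) and 0.25. No member was lower by the threshold under any of them. With a threshold of 1, 16 members were higher, where 12.9% of all gene names were higher and 8.92% lower. At that threshold 25 member probes were higher, for which no share over all probes was computed. The number of member probes lower was 0 after normexp background correction and 0 where both arrays had to be well above background, because the SPATA7 probe concerned was dim on the crossbred array. Of the partner genes 1 was higher after normexp correction and 1 with the percentile over the probes that both arrays detected. Elsewhere 8 members (normexp, with 4.23% of all gene names) to 10 members (mean over probes, with 5.98%) were higher. Single members moved by more than the spot SD after normexp correction (SPATA13 0.88, SPATA21 2.02) and with the mean over probes (SPAG9 0.60, SPATA2 0.26, SPATA7 0.38, TEX14 0.53); the cause was not tested. Values near background are the least certain, as for the SPATA7 probe. No paired analysis was possible because each group has 1 array.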
